A study of Rattus norvegicus with 127 samples.

Results

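Muscle that had received an immediate injection of saline was compared with muscle that had the injury and no injection, 7 days after a simulated birth injury. Both groups were taken from the pubocaudalis, which belongs to the floor of the pelvis, of Sprague Dawley rats. The injected samples are labelled as taken 7 days after an immediate saline injection (called saline day 7 here). The others are labelled as taken 7 days after the simulated birth injury (SBI day 7). The samples were chosen by that condition label alone, which gave 9 saline day 7 and 8 SBI day 7 samples, 17 of the 127 in the series. SBI day 7 replicates 5 and 7 held the same counts at every probe, and so did replicates 6 and 8, so each pair was averaged and counted once. That left 9 against 6. The labels used here give neither the age or sex of the rats nor whether each sample came from a different animal, so a p-value here reflects variation from sample to sample, which may be technical. The series also injected SKM, a hydrogel made from the matrix of skeletal muscle, and sampled other times. This comparison asks how the muscle with a saline injection differed from muscle with the injury alone. Some levels are also given for immediate SKM at day 7 (8 samples), for the same 2 conditions at day 3 (9 samples each, with 1 identical SBI pair averaged to leave 8) and for uninjured muscle (3 samples).

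RNA was measured with a custom nCounter panel, in which barcoded probes are counted without amplification. The panel held 133 genes with a mean deposited value of at least 20 over these samples and 1 below it, and all of them were tested. All values are log2(deposited value + 1), and all differences are saline day 7 minus SBI day 7 on that scale. Counts recovered from the deposited values totalled 769589 to 1597770 in saline day 7 samples and 970068 to 1665989 in SBI day 7 samples. The mean log2 total differed by -0.17 (exact two-sided permutation test over samples, p = 0.345; 9 against 6 samples).

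Skeletal muscle repairs itself in overlapping steps. Neutrophils and macrophages clear dead fibres while cytokines such as IL-1β are high. Satellite cells, the resident stem cells marked by Pax7, then switch on Myf5 and Myod1, and their descendants express Myog and fuse into new fibres that carry the embryonic myosin Myh3. Fibroblasts lay down collagen in the same period, and vessels and nerve contacts are rebuilt. Myh3 averaged 14.90 ± 1.13 in saline day 7 samples and 13.81 ± 1.99 in SBI day 7 samples (SD, n = 9 and 6), and stood at 8.48 ± 1.42 in uninjured muscle (n = 3). The labelled tissue fitted its markers, since Acta1, skeletal muscle actin, ran from 14.06 to 18.12 in saline day 7 and from 14.35 to 18.72 in SBI day 7 samples.

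In the fit of the 2 groups alone, no gene passed the test. With limma and Benjamini-Hochberg adjustment over the panel, 0 genes (0%) passed an adjusted p of 0.05 on the deposited scale, and 7 (5.22% of the panel) had an unadjusted p under 0.05. The share of 5.22% is close to what the 0.05 threshold marks by chance alone. The smallest adjusted p was 0.746. Leaving out SBI day 7 replicate 6 brought the 7 down to 1, and leaving out replicate 4 raised it to 16. The counts were 0 (0%) and 1 (0.746%) after each sample was centred on its own panel median, its middle gene, with a smallest adjusted p of 0.987. In 0 genes (0%) did the 9 saline day 7 values lie wholly above or below the 6 SBI day 7 values.

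The data bounded the difference closely for some genes and hardly at all for others. On the deposited scale the 95% interval lay within ±1, that is inside a 2-fold change either way, for 61 genes, and after centring for 78. The reach of the interval to either side had a median of 0.74. It was smallest for Timp2, an inhibitor of matrix metalloproteinases, whose difference was 0.18 with an interval from -0.15 to 0.51. It was widest for Mmp12, a macrophage elastase, whose difference of 0.93 had an interval from -2.90 to 4.75. For 30 genes the interval held both 1 and -1, so changes of that size were not detectable with these samples.

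**Figure D1:**
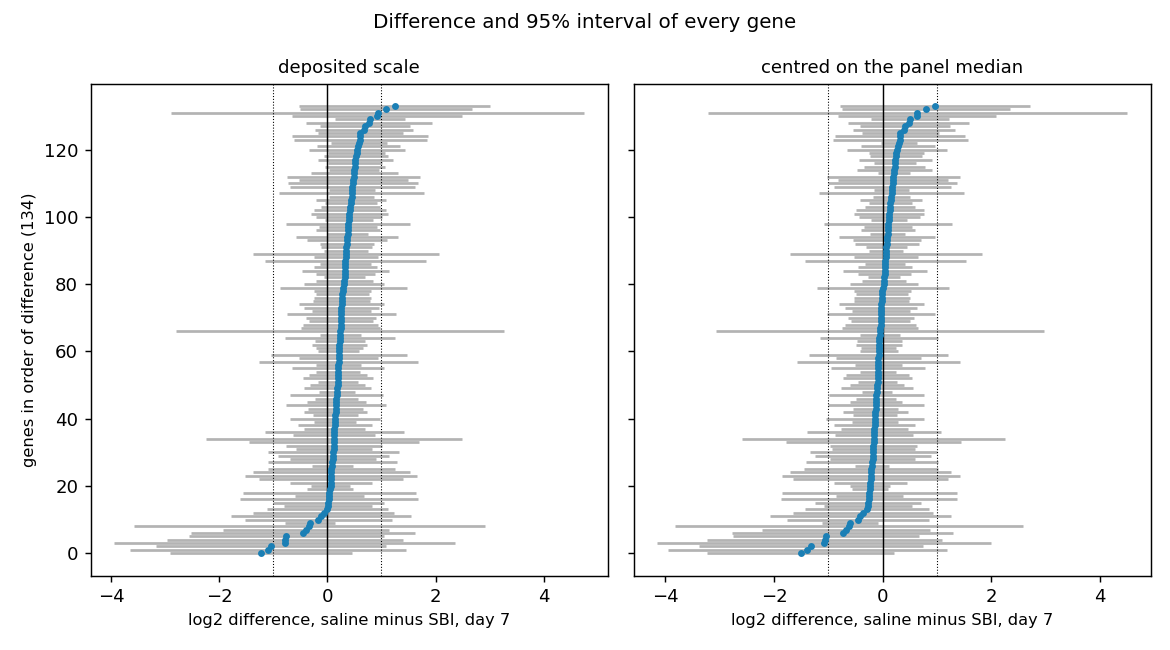
Log2 difference (saline day 7 minus SBI day 7) of every gene in order of size, points, with 95% intervals from limma as grey lines, on the deposited scale (left) and after centring each sample on its panel median (right). Dotted lines mark ±1. On the deposited scale 121 points lie right of 0 and 13 left of it, and after centring 55 lie right and 79 left.

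The deposited level of the whole panel did differ. The median gene of a sample averaged 10.49 ± 0.12 in saline day 7 samples and 10.20 ± 0.34 in SBI day 7 samples, a difference of 0.29 (exact two-sided permutation test, p = 0.0256; SD, n = 9 and 6). The 9 saline medians lay between 10.29 and 10.74, and the 6 SBI medians between 9.57 and 10.51, with SBI day 7 replicate 6 the lowest. The 2 groups overlapped. Without that replicate the difference was 0.16 (p = 0.0639), and the call was also lost without SBI day 7 replicate 2 or 5 (p = 0.0639 each). This shift enters every value on the deposited scale: the median difference over all genes was 0.24, and -0.05 after centring. The text therefore reads each gene against 0.24 on the deposited scale. That median was itself 0.136 without SBI day 7 replicate 6 and 0.10 when limma weighted each sample by its own quality, a setting in which 87 genes rather than 121 lay above 0. The sources used here do not say which genes or controls set that scale. Samples with the same counts were deposited at different levels. The panel medians were 10.07 and 10.21 for SBI day 7 replicates 5 and 7, and 9.55 and 9.58 for replicates 6 and 8. For the identical pair at SBI day 3, replicates 6 and 7, they were 10.46 and 10.97. The part of the scaling in the difference between the groups was not tested.

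**Figure D2:**
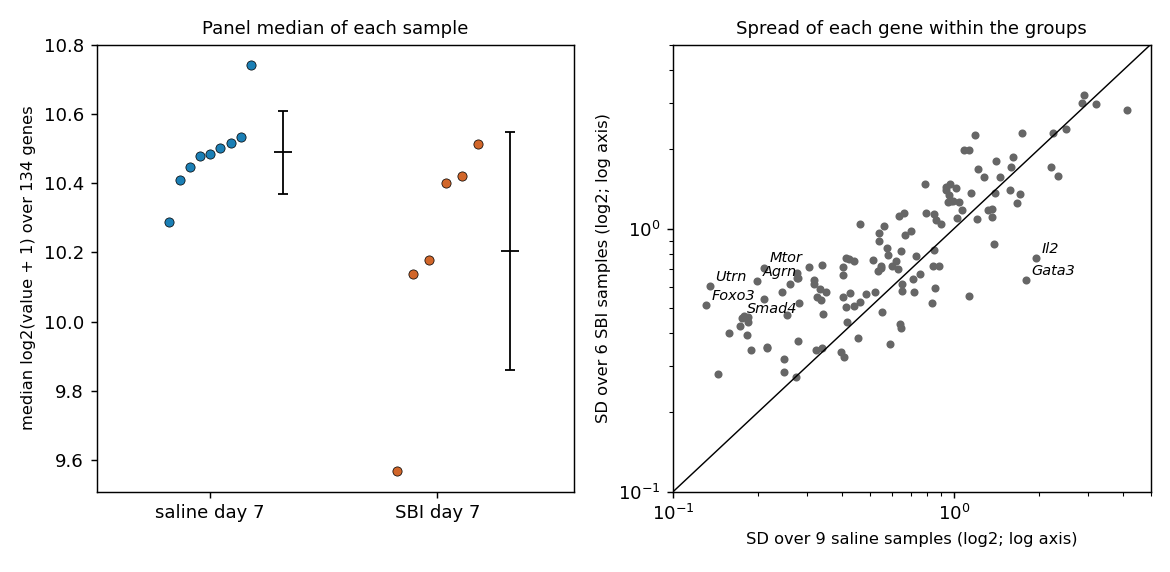
Left: median log2(value + 1) over all genes in each sample, saline day 7 (9 points) and SBI day 7 (6 points), with mean and SD as bars beside them. The lowest point, 9.57, is SBI day 7 replicate 6. Right: SD of each gene over the saline samples (horizontal, log axis) and over the SBI samples (vertical, log axis). 99 genes lie above the diagonal, and the 5 with the largest ratio, Utrn, Foxo3, Mtor, Agrn and Smad4, are named, with Il2 and Gata3 on the other side.

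Genes of satellite cells and myoblasts held the comparison's smallest p-value. Myod1, the transcription factor that commits satellite cells to muscle, ran from 8.99 through a median of 10.29 to 10.87 in saline day 7 samples and from 8.56 through 9.52 to 9.76 in SBI day 7 samples. Of the 9 saline samples 7 lay above every SBI sample, and replicates 2 and 7 lay among them. The difference was 0.79 ± 0.30 (SE; interval 0.15 to 1.43; limma p = 0.0190, adjusted p = 0.746). After centring it was 0.50 (interval -0.21 to 1.22). Both groups lay below the mean of uninjured muscle, 11.18 ± 0.45 (n = 3), while immediate SKM at day 7 averaged 10.21 ± 1.11 (n = 8). A sample with fewer cells of a type and one with less RNA per cell cannot be told apart in bulk tissue.

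Myog, which drives myoblasts to differentiate, had a median of 11.80 in saline day 7 (10.66 to 12.20) and of 11.32 in SBI day 7 (10.35 to 11.64), with 6 of 9 saline samples above every SBI sample. Its difference was 0.51 ± 0.26 (adjusted p = 0.746). Pax7, the marker of satellite cells themselves, differed by 0.44 ± 0.31, and Myf5, an early myogenic factor, by 0.25 ± 0.32. Fst encodes follistatin, which binds and blocks myostatin, and differed by 0.43 ± 0.23. Mstn, myostatin itself, a brake on muscle growth, differed by 0.47 ± 0.56. Of the 11 myogenic factors on the panel 0 passed the test on either scale. Their median difference was 0.36 against 0.24 over all genes, and 0.08 against -0.05 after centring.

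Myh3, the embryonic myosin of new fibres, varied widely in both groups. It ran from 12.58 through 15.18 to 16.28 in saline day 7 samples and from 10.58 through 14.21 to 15.93 in SBI day 7 samples. SBI day 7 replicate 5 had the lowest value, nearest the uninjured level of 8.48. The difference of 1.09 ± 0.75 had an interval from -0.51 to 2.68 (adjusted p = 0.746). Adam12, a metalloprotease of fusing myoblasts, differed by 0.61 ± 0.59. Of the 4 genes of forming fibres (Myh3, Myog, Myf6 and Adam12) 0 passed.

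Genes of the mature fibre varied between samples far more than between groups. Ttn, the giant spring protein of the sarcomere, ran from 13.59 through 16.32 to 17.51 in saline day 7 samples. In SBI day 7 samples it ran from 12.31 through 15.02 to 17.46, with replicates 1, 2 and 6 below 14 and the others above 16. Its difference of 1.25 ± 0.83 was the highest on the panel, with an interval from -0.52 to 3.01. Dmd, dystrophin, which ties the fibre's skeleton to its membrane, differed by 0.69 ± 0.39, with saline day 7 replicate 7 apart from the other saline samples at 10.70. Utrn, its homologue utrophin, differed by 0.33 ± 0.22. Of 16 adult fibre genes 0 passed on either scale. Their median difference was 0.28, close to that of all genes (-0.01 after centring), and 2 of the 16 had an interval within ±1.

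**Figure D3:**
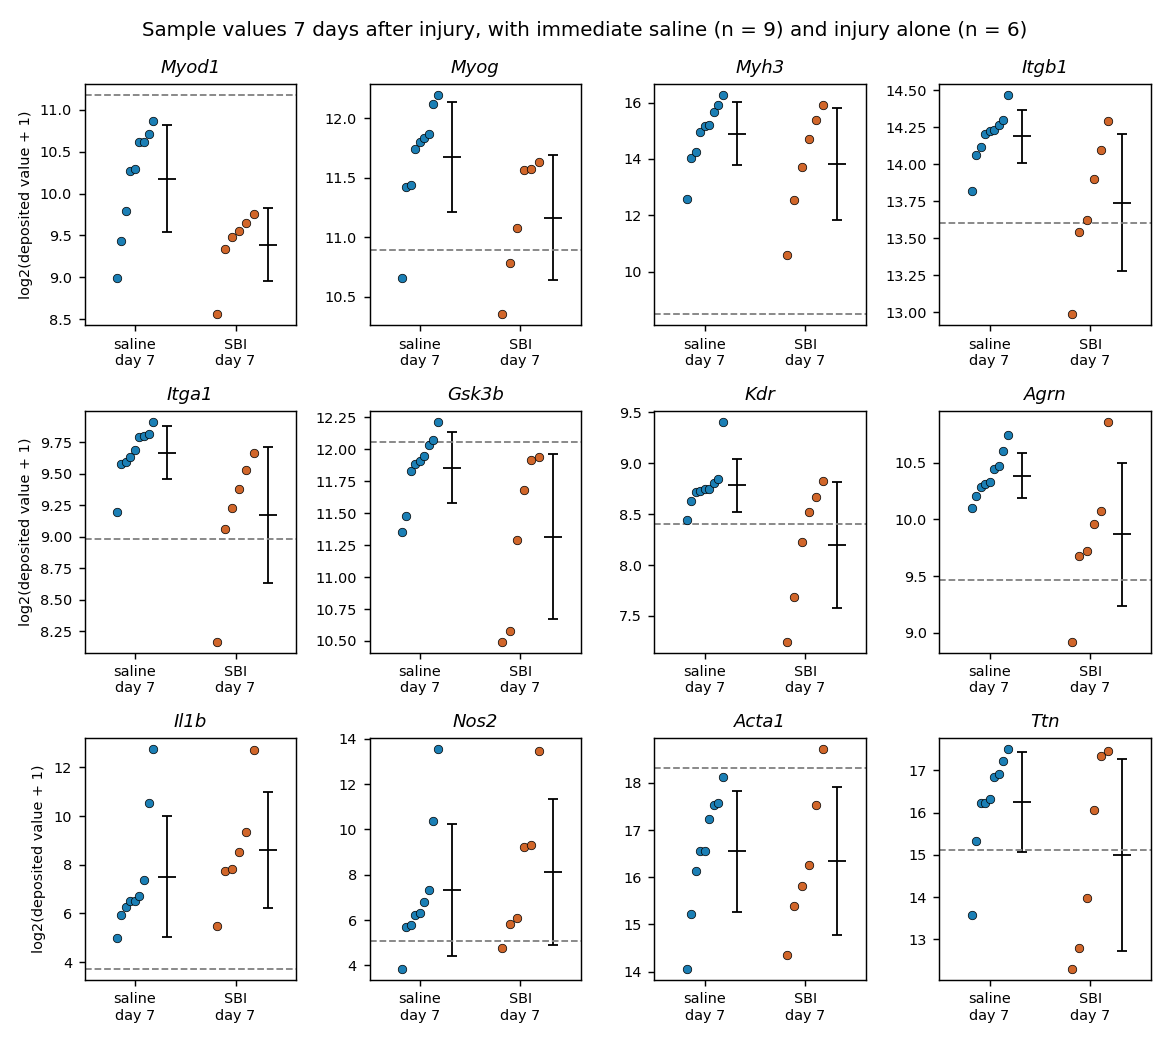
Log2(deposited value + 1) of 12 genes in the 9 saline day 7 samples (left of each panel, blue) and the 6 SBI day 7 samples (right, orange), sorted within each group, with mean and SD as bars. The dashed line is the mean of 3 uninjured samples. Myod1 shows 7 of 9 saline points above the highest SBI point, and Il1b and Nos2 show single samples far above the rest in both groups.

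Of the 9 matrix genes 2 were among the 7 with an unadjusted p under 0.05, both integrin subunits that bind collagen or laminin. After centring 0 of the 9 had an unadjusted p under 0.05. Itgb1, the common β1 chain, had a median of 14.23 in saline day 7 (13.82 to 14.47) and of 13.76 in SBI day 7 (12.99 to 14.29). Its difference was 0.45 ± 0.19 (limma p = 0.0353, adjusted p = 0.746). Itga1, the α1 chain that pairs with it as a collagen receptor, had medians of 9.69 (9.19 to 9.91) and 9.30 (8.17 to 9.67), a difference of 0.50 ± 0.22 (limma p = 0.0355). For Itga1 5 of 9 saline samples lay above every SBI sample, and for Itgb1 2 did. Centring reduced the differences to 0.16 and 0.21.

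Col1a1, the main fibrillar collagen, averaged 17.45 ± 0.54 in saline day 7 and 16.87 ± 0.90 in SBI day 7 samples, and Col3a1 differed by 0.40 ± 0.29. Both lay above their uninjured means of 15.37 and 15.52 in both groups. Dcn, decorin, which binds collagen fibrils, differed by 0.06 with an interval from -0.31 to 0.42; its name on the panel rests on 1 matched value. Tnc, tenascin C of the provisional matrix, differed by 0.92 ± 0.74, and its SBI day 7 values spanned 7.16 to 12.50, with replicate 5 the lowest. Of 9 matrix genes and 11 remodelling enzymes 0 passed, with median differences of 0.45 and 0.22, which centring turned to 0.16 and -0.06.

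Among the enzymes, Mmp9, a gelatinase, differed by 0.61 ± 0.37 and Mmp1, a collagenase with at most 33 counts in any sample, by 0.27 ± 0.25. For Tgfbr1, a receptor of the fibrosis cytokine TGF-β, the difference was 0.31 ± 0.25. Pdgfra, a receptor on fibroblasts, differed by 0.22 ± 0.20, and Smad2, a transducer of TGF-β, by 0.41 ± 0.34 on at most 40 counts. The 8 genes of this pathway had 0 calls and a median of 0.29, and 0.00 after centring.

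Vessel genes gave the next smallest p. Kdr, the main VEGF receptor of endothelium, had a median of 8.74 in saline day 7 (8.44 to 9.41) and of 8.37 in SBI day 7 (7.25 to 8.82). Its difference was 0.59 ± 0.24 (limma p = 0.0272, adjusted p = 0.746), and 0.30 after centring (interval -0.04 to 0.64). Replicate 7 was the highest saline sample and replicate 6 the lowest SBI sample, and 7 of the 9 saline values lay within the SBI range. Tie1, a receptor that is also endothelial, differed by 0.05 ± 0.20, with an interval from -0.37 to 0.47. Vegfa, the growth factor that Kdr binds, differed by 0.52 ± 0.32, Angpt2, a factor that loosens vessels, by 0.35 ± 0.22, and Nrp1, a VEGF co-receptor, by 0.40 ± 0.21. Of 7 vessel genes 0 passed, and 5 had an interval within ±1.

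At the neuromuscular junction, Agrn, the nerve signal that clusters acetylcholine receptors, had a median of 10.33 in saline day 7 (10.10 to 10.74) and of 9.84 in SBI day 7 (8.92 to 10.86). The 9 saline values lay inside the range of the 6 SBI values. The difference was 0.52 ± 0.24 (limma p = 0.0443, adjusted p = 0.746), and 0.23 after centring (interval -0.15 to 0.62). Musk, the kinase through which agrin acts, differed by 0.68 ± 0.42, and App, the amyloid precursor protein, by 0.32 ± 0.18. Of 6 junction genes 0 passed, with a median of 0.41.

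Of the gene lists, growth signalling had the largest share of members with a close bound. Of 13 genes of anabolic signalling, restraints such as Gsk3b among them, 12 had an interval within ±1. The median difference of the 13 was 0.27, close to the 0.24 of all genes (-0.01 and -0.05 after centring). Gsk3b, a kinase that restrains protein synthesis, had a median of 11.90 in saline day 7 (11.35 to 12.21) and of 11.48 in SBI day 7 (10.50 to 11.94). Its difference was 0.54 ± 0.25 (limma p = 0.0478, adjusted p = 0.746), and 0.25 after centring (interval -0.25 to 0.76). Igf1r, the receptor of insulin-like growth factor 1, differed by 0.35 ± 0.19, and Mtor, the central growth kinase, by 0.33 ± 0.26. The probe matched to Prkaa1, an energy-sensing kinase, differed by 0.38 ± 0.18; its name is weakly supported, since 2 of 4 values used for the match came within 0.05.

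Foxo3, a transcription factor of the muscle wasting programme, had a median of 9.87 in saline day 7 (9.53 to 9.95) and of 9.63 in SBI day 7 (8.49 to 9.78), with 7 of 9 saline samples above every SBI sample. The difference was 0.46 ± 0.20 (limma p = 0.0367, adjusted p = 0.746), and 0.17 after centring (interval -0.15 to 0.50). Foxo1, its relative, differed by 0.33 ± 0.27. Of 6 catabolic genes 0 passed, with a median difference of 0.31.

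Genes of acute inflammation spread widely between samples and held the 2 lowest estimates on the panel, those of Il2 and Il1b. Of 12 genes of acute inflammation 0 passed, 5 differences were above 0, and the median was -0.29 against 0.24 over all genes. After centring it was -0.57 against -0.05, with 0 of 12 above 0. Only 1 of these 12 genes, Ccr2, had an interval within ±1. The lists were chosen with earlier results known, and no test of a list was made.

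Il1b encodes the cytokine IL-1β. It ran from 4.99 through 6.53 to 12.76 in saline day 7 samples and from 5.50 through 8.18 to 12.73 in SBI day 7 samples. The saline median was the lower one, single samples in both groups reached the same height, and the difference of -1.10 ± 1.20 had an interval from -3.66 to 1.45. Uninjured muscle averaged 3.73 ± 1.00 (n = 3). Ccl3, a chemokine that draws in monocytes, differed by -0.76 ± 0.85. Il2, a T cell growth factor, had the lowest estimate, -1.23 ± 0.79, but rests on at most 45 counts a sample and on 0 counts in saline day 7 replicates 6 and 8. Cxcr2, the neutrophil chemokine receptor, differed by 0.24 ± 1.42 and was at 0 in 1 sample of each group.

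Il10, a cytokine that damps inflammation, was the only gene (0.746% of the panel) with an unadjusted p under 0.05 after centring. Il10 rests on 28 to 118 counts in saline day 7 and 57 to 247 in SBI day 7 samples, with counting error at 20.8% of its variance on the deposited scale. Its medians were 6.94 in saline day 7 (6.21 to 7.29) and 7.22 in SBI day 7 (6.60 to 7.42), and 3 of 9 saline samples lay below every SBI sample. The centred difference was -0.60 (interval -1.12 to -0.08; limma p = 0.0258, adjusted p = 0.987), and the deposited one -0.32 ± 0.22. Il33, an alarm signal released by damaged tissue, differed by 0.19 ± 0.17, Stat6, a transducer of IL-4 and IL-13, by 0.25 ± 0.28, and Il15, a cytokine made by muscle, by 0.09 ± 0.18. Nfkb1, a transcription factor of inflammatory signalling, differed by 0.38 ± 0.28, and Ikbkb, whose name was also weakly matched, by 0.28 ± 0.23. Of the 5 innate signalling genes and the 8 type 2 and regulatory genes 0 passed, with median differences of 0.28 and 0.11 (-0.01 and -0.18 after centring).

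Summed markers of the cell types that the tissue could hold overlapped between the groups in all 6 lists. The log2 sum of the 4 macrophage genes (Adgre1, Ccr2, Arg1 and Mmp12) ran from 10.00 to 14.10 in saline day 7 and from 10.44 to 12.73 in SBI day 7, with medians of 12.42 and 12.34. The 3 satellite cell genes ran from 10.08 to 11.19 in saline day 7 and from 9.72 to 10.74 in SBI day 7. Their medians of 10.90 and 10.13 lay furthest apart of the 6 lists. The sums were taken before the log and without centring, so the highest gene weighs most. Among these 3 that was Myod1, with a mean count of 693.9 beside 244.6 for Myf5 and 137.4 for Pax7. The 2 neutrophil genes (Cxcr2 and Mmp8) ran from 3.16 to 10.25 in saline and from 4.47 to 9.79 in SBI samples, with medians of 5.44 and 5.62. For the 4 lymphocyte genes (Foxp3, Gata3, Tbx21 and Il2) the ranges were 7.02 to 8.98 and 7.26 to 8.98, around 8.27 and 7.72. The 4 fibroblast genes, led by the collagens, ran from 18.42 to 19.44 in saline and from 17.69 to 19.31 in SBI samples, around 18.88 and 18.58. The 2 endothelial genes ran from 10.34 to 11.34 and from 9.95 to 10.89, around 10.68 and 10.73.

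Of single markers, Adgre1, the macrophage receptor F4/80, differed by 0.07 ± 0.75, Arg1, an enzyme of repair macrophages, by -0.17 ± 0.64, and Ccr2, a monocyte receptor, by 0.13 ± 0.35. Foxp3, the regulatory T cell factor, differed by 0.02 ± 0.48. Gata3 and Tbx21, which direct T helper cells, differed by -0.39 ± 0.72 and 0.13 ± 0.60. Mmp8, the collagenase of neutrophils, differed by -1.04 ± 1.00. Of these, Gata3 and Mmp12 were at 0 counts in saline day 7 replicate 6 and Mmp8 in replicate 9, and no other marker was at 0 beside Il2 and Cxcr2.

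The same profile of high inflammatory and low fibre genes appeared once or more in each group. Of the 12 acute inflammation genes, 11 had their highest saline value in replicate 7, and 11 their highest SBI value in replicate 1. Of the 16 adult fibre genes, 14 had their lowest saline value in that same replicate 7, and 14 their lowest SBI value in that same replicate 1. Nos2, the inducible nitric oxide synthase of activated macrophages, stood at 13.55 in saline day 7 replicate 7 and at 13.47 in SBI day 7 replicate 1. Nos2 lay between 3.85 and 10.37 in the other 8 saline samples and between 4.75 and 9.31 in the other 5 SBI samples. Acta1 stood at 14.06 in saline day 7 replicate 7 and 14.35 in SBI day 7 replicate 1, the lowest values of their groups. These samples also had the lowest recovered total counts of their groups, 769589 and 970068. Saline day 7 replicate 7 had the highest panel median of its group as well, 10.74. SBI day 7 replicate 1, at 10.40, did not, since replicate 3 stood at 10.51. The part of the total count or of the panel median in the profile was not tested.

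A profile of high fibre genes was present in both groups as well. Of the adult fibre genes 11 of 16 were highest in saline day 7 replicate 6 and 13 of 16 in SBI day 7 replicate 5. Acta1 reached 18.12 and 18.72 in those samples, beside 18.31 ± 0.29 in uninjured muscle. They differed in repair genes: Myh3 was 15.18 in the saline sample and 10.58 in the SBI sample, and Tnc 10.23 and 7.16. Of the 12 acute inflammation genes, 6 had their lowest saline value in saline day 7 replicate 6. Among SBI day 7 samples replicate 3, and not replicate 5, was most often the lowest, in 6 of the 12. Some of these lowest values are 0 counts at the deposited floor. Saline day 7 replicate 6 had the largest step of its group, 2.60, and 6 of the group's 8 probe values at 0. SBI day 7 replicate 3 was the only sample of its group with a 0, at 2 probes. Each profile rests on single samples, and Nos2, Acta1 and the other genes drawn beside them were picked after their values were seen.

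**Figure D4:**
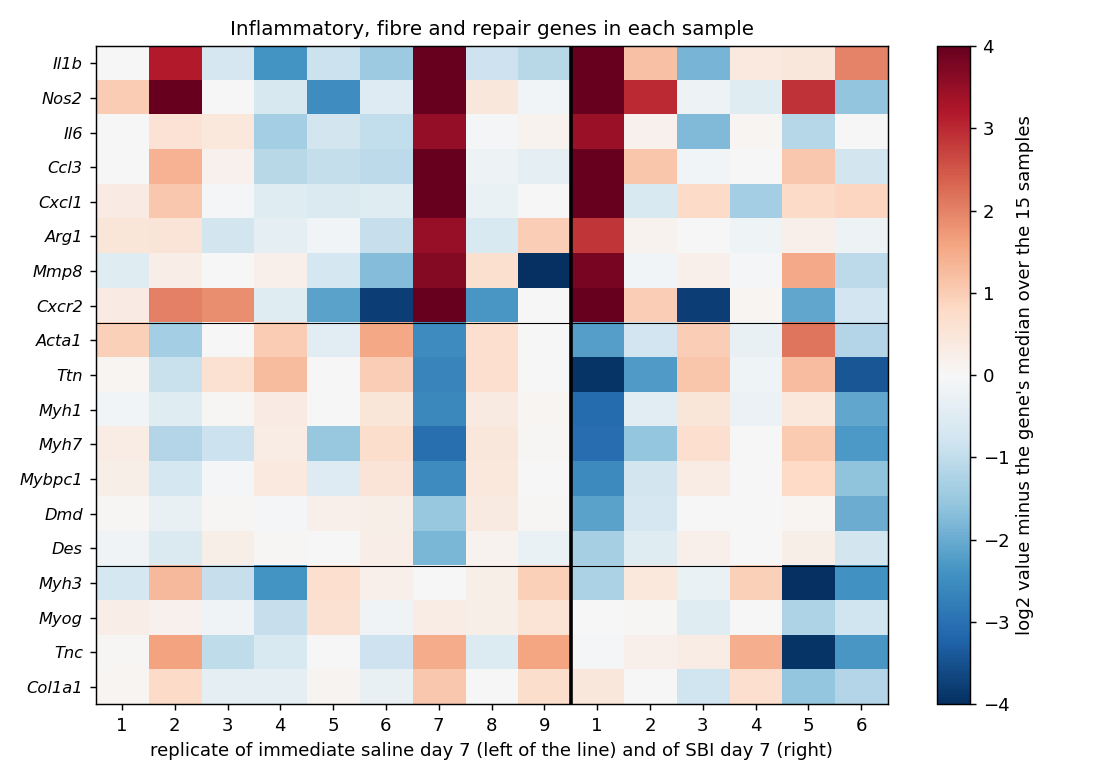
Log2 value of 19 genes in each of the 15 samples minus the gene's median over the 15, with 9 saline day 7 samples left of the line and 6 SBI day 7 samples right of it; colours stop at ±4. Rows run from inflammatory genes (top 8) through fibre genes (middle 7) to repair genes (bottom 4). Saline replicate 7 and SBI replicate 1 are red at the top and blue in the middle.

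The spread between samples was compared as a description, with no test. The SD was larger in SBI day 7 for 99 genes and in saline day 7 for 35, and the median SD was 0.61 in saline day 7 and 0.72 in SBI day 7. After centring it was larger in SBI day 7 for 93 genes. On the deposited scale the SBI SD was at least 2 times the saline SD in 21 genes, and the reverse held in 3. After centring these counts were 6 and 5, so the difference between them was small there. On the deposited scale the 5 largest ratios were those of Utrn at 4.46, Foxo3 at 3.90, Mtor at 3.38, Agrn at 3.17 and Smad4, the shared partner of TGF-β transducers, at 2.60. After centring they were 1.92, 2.16, 2.09, 1.61 and 1.57. The counts moved with single samples. Without saline day 7 replicate 7, 115 genes had the larger SD in SBI day 7 and the 21 became 47, and after centring these were 113 and 33. Without SBI day 7 replicate 1 the larger SD lay in SBI day 7 for 83 genes, and for 60, fewer than the rest, after centring. Without SBI day 7 replicate 6 the 21 became 13.

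A fit that shared its error over the whole series gave other calls. When all 18 groups of the series were fitted together and shared 1 estimate of the spread per gene, 4 genes (2.99% of the panel) passed, all higher in saline day 7. They were Itgb1 and Gsk3b (limma adjusted p = 0.00415 each), Prkaa1 (adjusted p = 0.00597) and Foxo3 (adjusted p = 0.0489). The name Prkaa1 is weakly supported, since 2 of 4 values used for its match came within 0.05. Itga1 missed at 0.0503. In these 4 genes the SBI SD was 2.59, 2.34, 2.52 and 3.90 times the saline SD, and 1.29, 1.54, 0.941 and 2.16 times after centring. Without SBI day 7 replicate 6, the sample with the lowest panel median, 0 genes passed (smallest adjusted p = 0.365, 5 unadjusted). After centring 0 genes passed (0%), with 2 (1.49%) at an unadjusted p under 0.05.

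Day 3 gave more calls, again on the deposited scale alone. There, 9 immediate saline samples against 8 SBI samples gave 49 genes (36.6% of the panel) at an adjusted p under 0.05 with limma, all higher with saline, and a median difference of 0.55. After centring 0 genes (0%) passed at day 3 and 5 (3.73%) had an unadjusted p under 0.05. The 2 days share no samples, and the change in the saline difference between them was tested directly. For that contrast 0 genes (0%) passed on the deposited scale, with 5 (3.73%) at an unadjusted p under 0.05, and 0 after centring, with 2 (1.49%).

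The 5 genes with the smallest p in that contrast all had a saline difference that was lower at day 7. Most of the panel moved the same way on the deposited scale, where 25 genes had a higher difference at day 7 and the median change was -0.28. After centring 85 genes had a higher difference at day 7, and the median change was 0.06. Mmp8 ran from 0.14 through 4.88 to 8.55 in saline day 7 and from 3.83 through 4.95 to 8.66 in SBI day 7 samples. At day 3 it ran from 4.80 through 7.83 to 11.07 with saline and from 0.14 through 5.02 to 9.01 without. The 2 values of 0.14 are 0 counts at the deposited floor, in saline day 7 replicate 9 and SBI day 3 replicate 8. The difference was 2.97 at day 3 and -1.04 at day 7, a change of -4.01 ± 1.58 (limma p = 0.0164, adjusted p = 0.885). For Il10 the difference was 0.85 at day 3 and -0.32 at day 7, a change of -1.16 ± 0.51 (adjusted p = 0.885). Il23a, a subunit of the cytokine IL-23, changed by -2.48 ± 1.14, Timp2 by -0.42 ± 0.20 and Tie1 by -0.51 ± 0.24 (adjusted p = 0.885 each). After centring the last 2 were at -0.08 and -0.16. With all 18 groups in the fit Mmp8 passed on both scales (adjusted p = 0.0109 and 0.0205), and it was the only gene to do so. On the deposited scale that call was lost without either sample at 0 (smallest adjusted p = 0.0502 without saline day 7 replicate 9 and 0.0736 without SBI day 3 replicate 8) and without SBI day 7 replicate 1 (0.11).

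**Figure D5:**
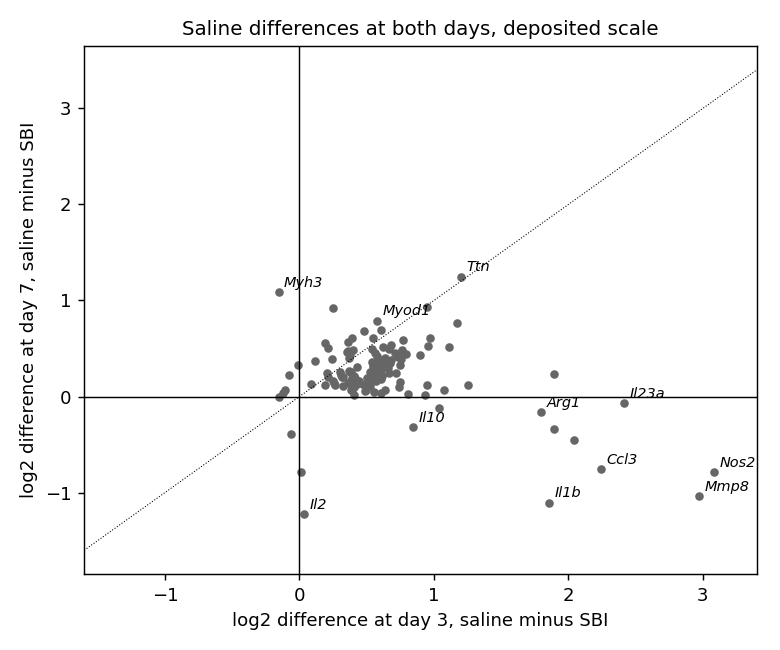
Log2 difference with saline minus SBI at day 3 (horizontal; 9 against 8 samples) and at day 7 (vertical; 9 against 6 samples) for every gene on the deposited scale. The dotted line marks equal differences. Mmp8 lies at 2.97 and -1.04, and Ttn at 1.20 and 1.25.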

How the data were processed

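Per the labels' protocols, muscle was stored in RNAlater, its RNA was extracted with a fibrous tissue kit, and 50 to 100 ng were hybridised to the custom probes. The value table the authors deposited holds normalized signal, unlogged; the sources used here do not state the software, control probes or scaling genes. Its values are whole multiples of 1 step per sample (all 16829 above the floor within 0.05 of a count), so counts could be recovered, and counts of 0 were written as 0.1. The step, the factor applied to a count, ran from 1.05 to 2.60 in saline day 7 and from 0.655 to 2.66 in SBI day 7 samples. Low counts, such as those of Il2, carry a large counting error, and the deposited floor sets their lowest value.

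Probes are unnamed in that table. The 136 names of the authors' deposited workbook were matched to probes by setting log2 ratios of group means against the authors' log2 fold changes in 8 comparisons. The median difference was 0.0049, and the names then ran alphabetically over 133 of 133 neighbouring pairs of probes, which was not used for the match. Ppard and Pparg were left without a probe. Both names fall alphabetically between Pdgfra and Ptn, as Prkaa1 does, so the order cannot tell which of them the Prkaa1 probe is.

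Differences of log2(value + 1) were tested with limma 3.58.1 in R 4.3.3, for the 2 groups alone, at an adjusted p of 0.05 over the whole panel, and 95% intervals came from its moderated standard errors. The day 7 minus day 3 contrast was fitted over the 4 groups concerned, after 1 identical pair of SBI day 3 samples had been averaged. Single values per sample were tested by exact permutation (scipy 1.17.1). The fit was tested on simulated data. Genes named are the 10 with the smallest p on either scale, the 3 with the smallest p in each gene list, every cell type marker, and 5 each by the day contrast and by the ratio of SDs. The samples and gene lists were chosen with earlier results of these data known. A gene that the rule names is not reported here.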

Additional observations from a re-analysis of the deposited data

Results flagged for a closer look

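Dixon's test of 1 extreme sample was applied to the panel median, the total count and the 57 named genes in each group, 118 tests in all, of which chance alone marks about 1 in 20. It marked 18 values. In saline day 7, replicate 7 stood apart in 6 genes: it was highest in Arg1 (11.094, next 8.581), Ccl3 (11.401, next 8.777), Kdr (9.406, next 8.848), Nfkb1 (12.886, next 11.883) and Stat6 (11.26, next 10.362), and lowest in Dmd (10.703, next 11.93). Replicate 6 was lowest in Gata3 (0.138, which is 0 counts, next 3.953), Il23a (1.849, which is 1 count, next 4.68) and Smad2 (3.513, next 4.72). Replicate 1 was lowest in Angpt2 (8.582, next 9.111), Foxo3 (9.535, next 9.761) and Itga1 (9.195, next 9.578), and replicate 4 in Myog (10.656, next 11.424).

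In SBI day 7, replicate 1 was highest in Arg1 (10.465, next 7.807), Ccl3 (11.91, next 8.499) and Il23a (7.59, next 4.719) and lowest in Myod1 (8.556, next 9.335). Replicate 6 was lowest in Il15 (6.355, next 6.844). Arg1 and Ccl3 were marked in both groups. No gene's saline difference changed between day 3 and day 7 at an adjusted p of 0.05 in the fit of the 4 groups.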

How the results depend on the processing

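Fitting all 18 groups together called 4 genes uncentred and 0 once centred, and called 1 gene, Mmp8, in the day 7 minus day 3 contrast on both scales. Without each of its 32 samples in turn, added later, that contrast called 0 genes in 3 fits, 1 in 24 and 2 to 6 in 5 (4 without SBI day 7 replicate 6, 6 without SBI day 3 replicate 9), and after centring 0 in 7 and 1 in 25. That fit without each sample in turn, added after the data were seen, called 12, 11, 7, 4 and 1 genes without SBI day 7 replicates 3, 5, 4, 2 and 1, 0 without replicate 6, 5 without saline replicate 1 or 7, and 3 without each other saline sample; after centring it called 0 in all 15. In the fit of the 2 groups, leaving out each sample called 0 genes in all 15 on both scales (smallest adjusted p from 0.371 to 0.992 on the deposited scale), and the day contrast 0 in all 32. Group or sample weights, a pseudocount of 10, a mean value of at least 20, voom weights, centring on the sample mean, all 8 SBI samples kept separate and SBI replicates 1 to 6 alone called 0 genes on both scales; keeping all 8 separate gave 23 genes at an unadjusted p under 0.05 against 7. Of 57 named genes 16 changed sign after centring on the panel median, 11 with sample weights, 11 after centring on the sample mean, 4 with the replicate block, at most 2 under each other setting of the 2 groups, and 11 when some 1 sample was left out; none was called with the opposite sign. The panel median difference of 0.286 ran from 0.158 to 0.348 as samples were left out, was 0.300 with SBI replicates 1 to 6 (added later) and 0.374 with all 8 separate (exact permutation p = 0.0256 and 0.00535).

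The labels do not say whether equal replicate numbers pair the samples. The deviations of same-numbered samples correlated between -0.25 and 0.64. Of 6 SBI samples 1 was most like the saline sample of its number. A low correlation cannot exclude pairing, and the averaged SBI samples were compared under numbers 5 and 6 alone. With the replicate block 0 genes were called on either scale, 1 and 2 at an unadjusted p under 0.05, and 0 in the day contrast. The planned edgeR and DESeq2 fits on the recovered counts were not run, and voom on those counts was run in their place. Counting error made up at least 10% of the variance between samples in 14 genes, of mean counts up to 232, and less in the other 120.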

Other observations

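Il1b and Acta1 were set against each other within each group, a pair chosen after their values were seen. Over the 9 saline day 7 samples Pearson's r was -0.89 and Spearman's rho -0.68 (exact permutation p = 0.00382 and 0.0503; adjusted over the 4 relations computed, 0.00765 and 0.101). Without the 2 samples farthest from the median Il1b level r was -0.30, so the relation rests on those samples. Over the 6 SBI day 7 samples r was -0.77 and rho -0.83 (exact permutation p = 0.0708 and 0.0583, adjusted 0.0944 and 0.101), and r was -0.68 over the 4 samples left. After centring r was -0.90 in saline day 7 and -0.70 in SBI day 7 (exact permutation p = 0.00382 and 0.11). Without the 2 farthest samples of each group the centred r was -0.29 and -0.37, so on that scale both relations rest on those samples. The 4 relations are the same pair in each group on each scale, so the adjustment does not cover the choice of the pair.

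Over all genes, the deviation of SBI day 7 replicate 1 from its group mean correlated at 0.92 with that of saline day 7 replicate 7, as a description of 2 samples.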
